A study of Mus musculus with 6 samples.

Results

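The Wnt ligands, receptors and effectors are the secreted Wnt signals and the proteins that receive, restrain or carry them into the nucleus. Their members were chosen by gene symbol alone, as every gene in the table of transcription start windows named as a Wnt, a Frizzled, an SFRP, a DKK, LRP5 or LRP6, an axin, a TCF/LEF factor, beta-catenin or an R-spondin. This gave 49 genes of the 49366 with a window, made up of 19 ligands, 9 Frizzled receptors, 2 co-receptors, 4 R-spondins, 4 SFRPs, 4 DKKs, 2 axins and 5 nuclear effectors. Fzd4 was not analysed here.

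The assay was ATAC-seq, which reads out open chromatin through the sites where a transposase can insert sequencing adapters, applied to nuclei sorted for PCM1, a protein that coats the nuclei of muscle fibres. Male C57BL/6J mice aged 8 weeks received AAV6:Yap-shRNA, a viral vector carrying a short hairpin RNA against the Hippo pathway co-activator Yap, or AAV6:LacZ-shRNA, a hairpin against a bacterial gene, in opposite hindlimbs. Gastrocnemius and tibialis anterior muscles were taken 28 days later. Each of the 3 LacZ-shRNA and 3 Yap-shRNA replicates pooled 4 gastrocnemius and 4 tibialis anterior muscles, so that animals were not measured singly, and the labels do not tie replicate numbers to animals. Both groups carried AAV6 and a hairpin, and no muscle without vector was included. The study's methods place the Yap-shRNA in a plasmid that also expresses eGFP from the CMV promoter, which is active in many cell types, and do not give the promoter of the hairpin.

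Wnt proteins are lipid-modified signals that bind Frizzled receptors together with the co-receptors LRP5 and LRP6. In the absence of a signal, the axins hold beta-catenin in a complex that marks it for degradation. Signalling releases beta-catenin, which enters the nucleus and switches on genes through TCF/LEF factors. R-spondins raise the number of Frizzled receptors at the membrane, SFRPs capture Wnt ligands outside the cell, and several DKKs block the co-receptors. In muscle the pathway is known for roles in embryonic myogenesis, in satellite cells and at the neuromuscular junction, and it exchanges components with the Hippo pathway, in which Yap acts through TEAD factors on DNA.

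The sequences below come from promoters and peaks named in the results. Whether their motifs bear on accessibility was not tested. The first set holds promoters of members with high accessibility, Fzd7, Wnt9a and Wnt4, and of Wnt2, which had the smallest p-value among the windows. They are read 5′ to 3′ towards the gene from RefSeq sequence of GRCm38.p6, start 250 bases before a transcript start and stop before the first annotated exon base. Fzd5, also highly accessible, is not printed because an annotated exon begins too close to the start of its stretch. Capitals mark GC boxes (GGGCGG on either strand, overlapping matches counted apart), at chr1:59481897-59482146 (plus strand), chr11:59306680-59306927 (plus strand), chr4:137277385-137277488 (plus strand) and chr6:18030586-18030695 (minus strand).
Fzd7: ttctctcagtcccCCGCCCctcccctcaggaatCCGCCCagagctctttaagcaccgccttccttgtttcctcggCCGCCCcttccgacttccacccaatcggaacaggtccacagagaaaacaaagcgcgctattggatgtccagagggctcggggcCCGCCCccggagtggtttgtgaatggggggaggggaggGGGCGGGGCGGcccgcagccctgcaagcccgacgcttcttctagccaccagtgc
Wnt9a: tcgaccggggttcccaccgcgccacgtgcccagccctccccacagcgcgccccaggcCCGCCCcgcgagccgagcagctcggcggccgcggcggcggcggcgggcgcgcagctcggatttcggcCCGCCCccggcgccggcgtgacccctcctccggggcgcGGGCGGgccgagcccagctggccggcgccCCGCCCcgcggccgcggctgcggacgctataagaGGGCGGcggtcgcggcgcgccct
Wnt4: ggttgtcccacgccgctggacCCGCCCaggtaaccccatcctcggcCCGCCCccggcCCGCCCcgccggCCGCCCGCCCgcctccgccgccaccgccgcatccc
Wnt2: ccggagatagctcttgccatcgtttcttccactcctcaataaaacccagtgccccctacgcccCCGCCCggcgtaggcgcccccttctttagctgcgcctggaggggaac

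The second set comes from peaks, on the plus strand of the same build. It shows where the TEAD motif ACATTCC lies in both Dkk3 peaks whose knockdown values all lay below the control values. It also shows the motif in an intronic peak of Tcf7l2. Capitals mark the motif on either strand. The stretches lie at chr7:112128099-112128258, chr7:112185956-112186115 and chr19:55770850-55771089.
Dkk3 intron: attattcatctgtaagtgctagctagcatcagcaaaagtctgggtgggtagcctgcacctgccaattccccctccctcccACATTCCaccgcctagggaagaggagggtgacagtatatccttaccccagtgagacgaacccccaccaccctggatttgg
Dkk3 upstream: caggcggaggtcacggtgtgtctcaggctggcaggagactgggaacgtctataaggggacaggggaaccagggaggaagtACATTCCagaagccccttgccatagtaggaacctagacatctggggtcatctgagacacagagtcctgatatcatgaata
Tcf7l2 intron: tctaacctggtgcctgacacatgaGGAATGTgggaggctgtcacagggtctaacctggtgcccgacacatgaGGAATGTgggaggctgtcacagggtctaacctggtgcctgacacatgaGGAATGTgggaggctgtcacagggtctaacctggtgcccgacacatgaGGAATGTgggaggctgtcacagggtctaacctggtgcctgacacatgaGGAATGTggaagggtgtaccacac

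The third set holds the 4 TCF/LEF matches (ATCAAAG or TTCAAAG on either strand, in capitals) in the promoter peak of Axin2, a gene known as a direct target of Wnt signalling. They lie at chr11:108920417-108920443, chr11:108920780-108920806, chr11:108921222-108921248 and chr11:108921242-108921268. The first pair touches an annotated exon.
Axin2 site 1: gccggctgcgCTTTGATaaggtcctgg
Axin2 site 2: cggctcgcgcCTTTGAAgtgcacagtt
Axin2 site 3: ggccggcgcgCTTTGATgtgcggggcg
Axin2 site 4: cggggcggcgCTTTGAAgttggcaggc

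Window totals ran from 3326803 to 10319467 reads and peak totals from 2588520 to 6871176, with LacZ-shRNA replicates 1 and 2 the shallowest libraries. Of 12 muscle fibre markers, 10 stood in the top decile of protein-coding windows, and 7 of 8 leukocyte markers had a window, as did every marker of the other lists. Rows with a low mean count are not in the table, so it cannot show a marker at 0. The median percentile was 47.4 for leukocyte, 26.6 for fibroblast, 49.2 for endothelial, 48.4 for satellite cell and 43.2 for Schwann cell markers. Yap1 itself had a window log2 fold change of 0.039 (SE 0.18), which measures accessibility at its promoter and not the abundance of its transcript. Because nuclei were measured in bulk, a change in the mix of nuclei and a change within each nucleus cannot be told apart.

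In control muscle the Wnt promoters spanned a wide range of accessibility, led per kilobase by Frizzled receptors. Levels are given per kilobase of window, as CPM (counts scaled by library size and TMM factor) divided by window length, since a window covers 1 kb to each side of every annotated start of a gene. The median member held 7.46 CPM per kb, against 5.68 over 20540 protein-coding windows, and 40 of 49 members lay above that median. Without division by length, 26 of 49 did, and the order differed. Of the 28 members without a peak at the promoter, 21 lay above the median per kb, as did 19 of the 21 with one. A place above that median therefore does not by itself show an open promoter. Fzd7, a receptor found on satellite cells, was the most accessible member at 28.7 ± 5.94 CPM per kb (SD, n = 3), the 99.2nd percentile of protein-coding windows. It was followed by Fzd5 (23.8 ± 4.84), the ligand Wnt9a (21.0 ± 4.16), the ligand Wnt4 (18.7 ± 5.20) and Fzd2 (15.1 ± 2.85). Fzd9, Fzd8 and Fzd1 held 13.4, 12.8 and 12.3 CPM per kb, so that 8 members, 6 of them Frizzleds, stood in the top decile per kb. Over whole windows, which are longer for genes with several starts, 6 members exceeded Fzd7 (57.5 CPM). The top decile then held 3 members, Axin2 (78.1 CPM), Ctnnb1 (77.3 CPM) and Axin1 (70.2 CPM), and 0 Frizzleds.

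The same receptor family also held the lowest window values. Fzd10 had 0.983 ± 0.259 and Fzd6 1.22 ± 0.605 CPM per kb, and their windows held between 8 and 46 reads per library. Lef1, the TCF/LEF factor best known in lymphocytes and hair follicles, followed at 3.27 ± 0.0282 CPM per kb, then Rspo3 at 3.66 ± 0.734 and Wnt7a at 4.18 ± 0.441. In the order of levels, 47 of 48 neighbouring pairs had overlapping LacZ-shRNA ranges, so most places in it are not separated by the replicates. The pair apart was Lef1 and Fzd6. The windows of Fzd5, Fzd6, Fzd10, Lef1, Rspo3 and Wnt7a overlap that of another gene, so their counts are uncertain. The promoter peak of Fzd6 lies inside its window and held 9.30 ± 2.64 CPM in controls, against 4.09 ± 2.03 CPM for the window. Peaks and windows are scaled by their own totals, but the window still held fewer reads than this peak. The low place of Fzd6 is therefore not established. Levels in the Yap-shRNA group gave nearly the same order (Spearman's rho 0.938 across 49 genes, a description, as genes share libraries and base composition).

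**Figure D1:**
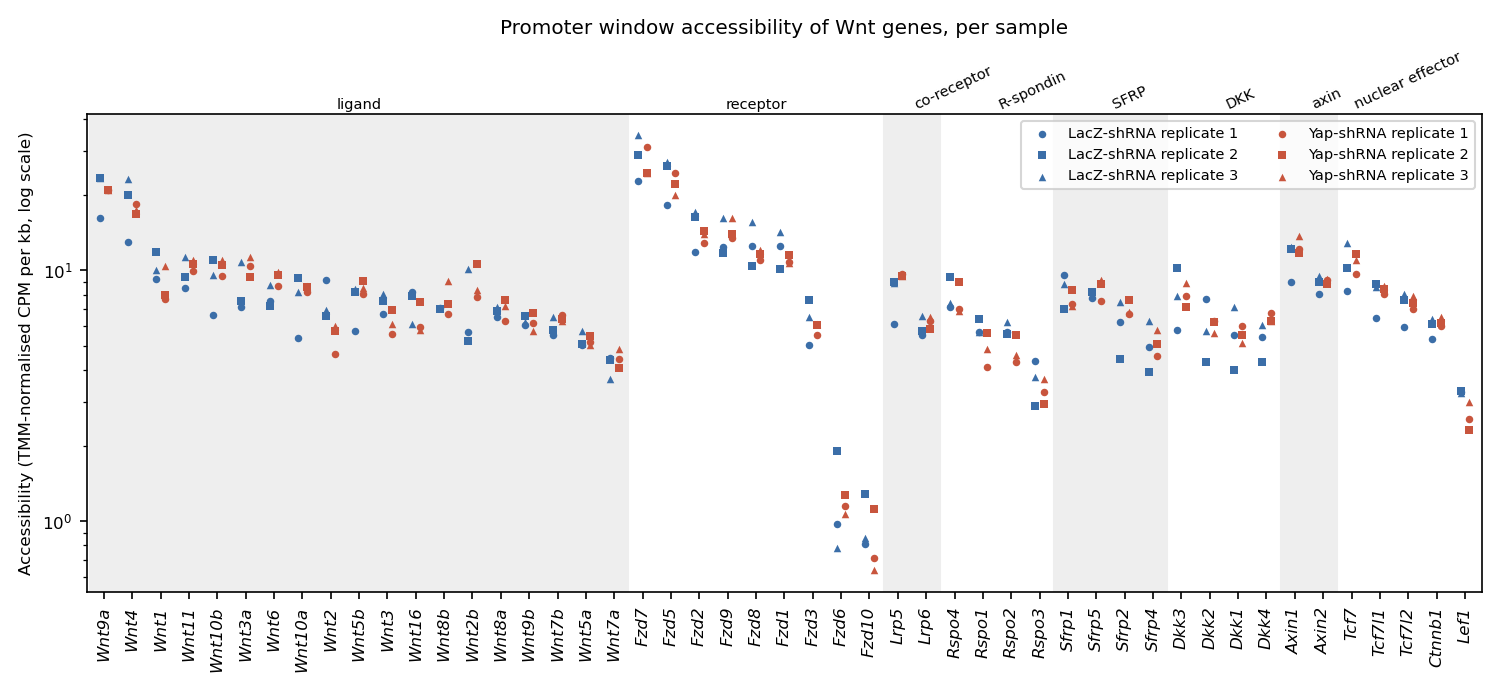
Accessibility of the promoter window of each of the 49 Wnt genes in every sample, in TMM-normalised CPM per kb on a log axis, by role and then by LacZ-shRNA mean. Blue points are LacZ-shRNA and red points Yap-shRNA replicates, with Fzd7 at the top (28.7 CPM per kb in LacZ-shRNA) and Fzd10 at the bottom (0.983).

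The members' windows were rich in G and C, with a median GC content of 56.6% against 48.8% over protein-coding windows, and a median ratio of observed to expected CpG of 0.54 against 0.36. Level rose with GC content across the 49 members (rho 0.566) about as it did across protein-coding windows (rho 0.539), and both are descriptions across genes. RefSeq promoters were matched for 32 members, with 41 promoters in all. A GC box lay in the 250 bases before the start in 30 of 41 (73.2%), against 32.7% of all 32851 promoters. At least 5 GC boxes were held by 8 of 41 (19.5%), against 1.93% of all promoters, including Fzd5 and Wnt3a with 9, Wnt4 with 8, and Fzd7, Wnt6, Wnt7a and Tcf7l2 with 6. For Wnt4, 5 of these lie in the printed stretch, which stops before an exon. Fzd1 held 0 and Fzd9 held 1, although both stood in the top decile per kb. The TCF/LEF motif was present in 3 of 41 (7.32%, in Wnt5b, Wnt11 and Dkk1), against 7.48% of all promoters. No member promoter held the exact TEAD motif, which 3.25% of all promoters hold.

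Knockdown of Yap was compared with the control to ask whether promoters of Wnt genes opened or closed. None of the 49 windows passed the threshold of an adjusted p under 0.05 (edgeR quasi-likelihood test, Benjamini-Hochberg over all windows), against 0.0223% of all windows (11 of 49366). At an unadjusted p under 0.05, 0 members were higher and 1 was lower, against 1.90% and 3.01% of all windows. DESeq2 gave an adjusted p for 25 of the 49 members and called 0 of these, and Wnt2, its 1 member under that unadjusted p, was among the 24 without an adjusted p. All 3 Yap-shRNA values lay above all 3 control values in 2 members (Lrp5 and Dkk4), against 5.31% of all windows. They lay below in 4 members (Wnt2, Rspo1, Rspo2 and Lef1), against 4.79%. Log2 fold changes ran from -0.48 to 0.28 with a median SE of 0.16. Their median was 0.020, against -0.014 over all windows, with 27 positive and 22 negative.

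This split changed when single libraries of either group were left out. LacZ-shRNA replicate 1 held the lowest of the 6 values in 21 of 49 members, against 28.9% of all windows, and LacZ-shRNA replicate 3 the highest in 17 of 49, against 14.8%. Without LacZ-shRNA replicate 1 the members' median was -0.067 with 34 of 49 negative, and without LacZ-shRNA replicate 3 it was 0.096 with 31 of 49 positive. Without Yap-shRNA replicate 2 the median was -0.016 with 26 of 49 negative.

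**Figure D2:**
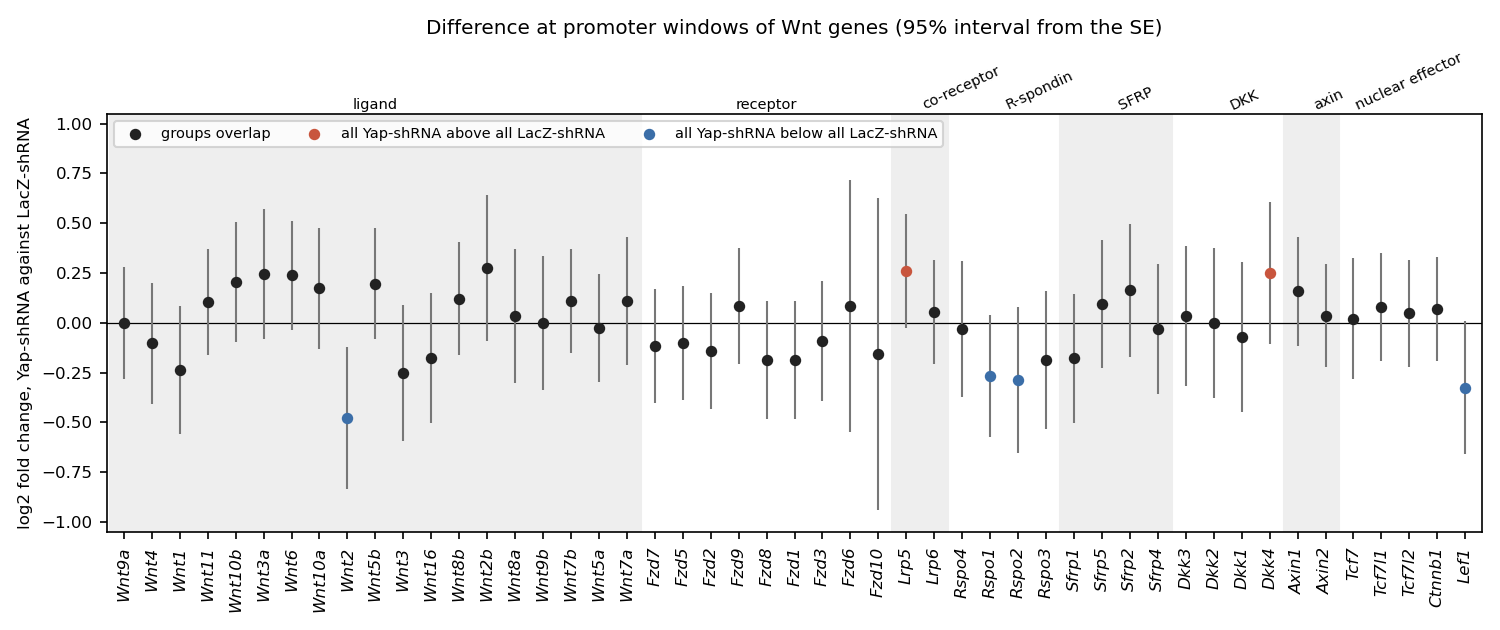
Log2 fold change of each promoter window, Yap-shRNA against LacZ-shRNA, with 95% intervals from the SE as bars, by role. Red points mark the 2 members with all Yap-shRNA values above all control values and blue points the 4 with all below. No window passed the adjusted threshold, and the lowest point is Wnt2 at -0.48.

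Among the 19 ligands, Wnt2 (ENSMUSG00000010797, at chr6:17988940-18030585), a ligand of lung and vascular development, had the smallest p-value of all members. Its window held 9.13, 6.57 and 6.95 CPM per kb in LacZ-shRNA replicates 1, 2 and 3 and 4.63, 5.72 and 6.02 in the Yap-shRNA replicates. The groups did not overlap, and LacZ-shRNA replicate 1 stood above all others. The log2 fold change was -0.48 (SE 0.18, 95% interval -0.83 to -0.12, unadjusted p 0.0123, adjusted p 0.946 by edgeR), so the difference did not pass the correction. Leaving out each sample kept it between -0.56 and -0.32. No peak was linked to Wnt2, and its window held 41 to 123 reads per library.

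Wnt9a, the most open ligand and one active in joint and skeletal development, lay at 16.2, 23.4 and 23.4 CPM per kb in the controls and at 20.8, 20.9 and 21.0 after knockdown. The Yap-shRNA values sat inside the control range, and the log2 fold change of -0.00071 (SE 0.14, adjusted p 0.9997 by edgeR) changed sign with library size alone and with an offset on GC content. Wnt7a, which expands satellite cells through Fzd7, held 4.49, 4.38 and 3.68 CPM per kb in controls and 4.42, 4.09 and 4.86 after knockdown, with overlapping groups and a log2 fold change of 0.11 (SE 0.16) that was 0.0021 without LacZ-shRNA replicate 3. The other 16 ligands had log2 fold changes from -0.25 (Wnt3) to 0.28 (Wnt2b), each with overlapping groups.

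Several ligands lie next to one another in the genome, as pairs known from the family's history of duplication. Wnt6 and Wnt10a, with 6193 bp between them on chromosome 1, had log2 fold changes of 0.24 (SE 0.14) and 0.17 (SE 0.15). Wnt3a and Wnt9a, 16175 bp apart on chromosome 11, had 0.24 (SE 0.17) and -0.00071 (SE 0.14). Wnt1 and Wnt10b, 11706 bp apart on chromosome 15, had -0.24 (SE 0.16) and 0.20 (SE 0.15), and Wnt3 and Wnt9b, 24328 bp apart on chromosome 11, had -0.25 (SE 0.17) and 0.00022 (SE 0.17). Only the members of the first pair shared a sign. The other pairs differed in sign, although Wnt9a and Wnt9b were near 0. The 95% interval of each of these differences held 0.

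Of the 9 Frizzled receptors, 7 had a negative log2 fold change, and none passed the test or had separate groups. The count was 7 of 9 under every other scaling tried and between 6 and 8 when single samples were left out. Over all windows, 26007 of 49366 were negative. Promoter peaks of the Frizzleds ran from -0.24 (Fzd3) to 0.15 (Fzd9) in log2 fold change, with those of Fzd6, Fzd7 and Fzd9 positive and the others negative. Fzd7 (ENSMUSG00000041075, at chr1:59482424-59486955) held 22.7, 29.0 and 34.6 CPM per kb in controls and 31.0, 24.5 and 24.5 after knockdown. The spread within each group exceeded the difference of -0.12 (SE 0.15, adjusted p 0.963 by edgeR), which became 0.062 without LacZ-shRNA replicate 3. Fzd1, a receptor of the canonical branch, held 12.6, 10.1 and 14.2 CPM per kb against 10.8, 11.5 and 10.7, a log2 fold change of -0.19 (SE 0.15) with overlapping groups that was -0.062 without LacZ-shRNA replicate 3 and -0.28 without LacZ-shRNA replicate 2. Fzd6 and Fzd10, the members with the fewest window reads, had the widest intervals of the family, with SEs of 0.32 and 0.40.

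The co-receptor Lrp5, which is best known for its role in bone mass, held 6.14, 9.03 and 8.89 CPM per kb in controls and 9.65, 9.54 and 9.54 after knockdown. Every Yap-shRNA value lay above every control value, with LacZ-shRNA replicate 1 far below the other controls. The log2 fold change of 0.26 (SE 0.15, adjusted p 0.946 by edgeR) did not pass the test and was 0.097 without LacZ-shRNA replicate 1. Its partner Lrp6 differed by 0.055 (SE 0.13).

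All 4 R-spondins had negative log2 fold changes, with a median of -0.23, and none passed the test. Library size alone, leaving out LacZ-shRNA replicate 2, and leaving out Yap-shRNA replicate 1 or 3 each turned 1 of them positive. Over all windows, 26007 of 49366 were negative, and the Rspo3 window overlaps that of Gm48159. Rspo1, whose count is uncertain because its window overlaps that of Gm12930, held 5.70, 6.41 and 5.67 CPM per kb in controls and 4.12, 5.63 and 4.87 after knockdown. Its groups stood apart by a narrow margin, with a log2 fold change of -0.27 (SE 0.16, adjusted p 0.946 by edgeR). Rspo2, known for limb and neuromuscular junction development, moved by -0.29 (SE 0.19) and also had separate groups. Rspo4, an R-spondin of nail development and the most open of the family, held 7.14, 9.45 and 7.40 CPM per kb against 7.02, 8.98 and 6.89, a difference of -0.031 (SE 0.17).

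The secreted antagonists showed no common direction. Sfrp1, which binds Wnt ligands, held 9.58, 7.05 and 8.82 CPM per kb in controls and 7.33, 8.33 and 7.18 after knockdown, with overlapping groups and a log2 fold change of -0.18 (SE 0.17). The other 3 SFRPs ran from -0.032 to 0.16. Dkk4 held 5.42, 4.32 and 6.04 CPM per kb against 6.77, 6.28 and 6.31. Its Yap-shRNA values all lay above the control values, with a log2 fold change of 0.25 (SE 0.18, adjusted p 0.949 by edgeR). The Dkk3 window held 5.79, 10.2 and 7.91 CPM per kb in controls and 7.89, 7.12 and 8.92 after knockdown, a difference of 0.034 (SE 0.18) within the control spread.

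Axin1, the limiting scaffold of the beta-catenin degradation complex, held 9.01, 12.2 and 12.5 CPM per kb in controls and 12.1, 11.7 and 13.7 after knockdown, a log2 fold change of 0.16 (SE 0.14) with overlapping groups that was 0.016 without LacZ-shRNA replicate 1 and 0.26 without LacZ-shRNA replicate 3. Axin2, the feedback inhibitor induced by the pathway, held 8.03, 8.96 and 9.54 CPM per kb against 9.16, 8.85 and 9.22. These values overlapped and differed by 0.036 (SE 0.13, 95% interval -0.22 to 0.29), and its window overlaps that of Gm11670. The promoter peak of Axin2 (chr11:108920038-108922140), which contains the 4 TCF/LEF sites printed above, held 49.0, 45.0 and 53.0 CPM in controls and 51.2, 54.3 and 52.1 after knockdown, a log2 fold change of 0.085 (SE 0.12). At least 4 such matches were found in 0.217% of 3226 peaks within 20% of its width, itself included.

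Among the nuclear effectors, Lef1 held 16.6, 16.7 and 16.4 CPM over its whole window in controls and 12.9, 11.6 and 15.2 CPM after knockdown. Each Yap-shRNA value lay below the tight control values, with a log2 fold change of -0.33 (SE 0.17, adjusted p 0.946 by edgeR) that did not pass the test. No peak was linked to Lef1, and its window overlaps that of Gm43352, so its count is uncertain. Ctnnb1, which encodes beta-catenin, held 5.33, 6.10 and 6.37 CPM per kb against 6.01, 6.19 and 6.50, a difference of 0.070 (SE 0.13) with overlapping groups and with overlap of the window by other genes. Tcf7, the factor most open here, held 8.29, 10.2 and 12.9 CPM per kb against 9.67, 11.6 and 11.0, a difference of 0.020 (SE 0.16). Tcf7l2, the TCF factor of fibroblasts and intestine, held 5.93, 7.59 and 8.08 CPM per kb against 7.04, 7.43 and 7.89, a difference of 0.048 (SE 0.14). The signs for Ctnnb1, Tcf7, Tcf7l2 and Axin2 reversed without LacZ-shRNA replicate 1, which held the lowest value in each, and that for Tcf7 also without Yap-shRNA replicate 2.

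Peaks extended the view beyond promoters. A peak was linked to a member when it overlapped 1 kb to either side of a start (promoter), otherwise overlapped the gene (genic), or lay within 50 kb of a start with the member as the nearest protein-coding start (distal). This linked 84 of 36097 peaks to 32 members, as 24 promoter, 29 genic and 31 distal peaks. A promoter peak was found for 21 members, and 17 had no linked peak. Tcf7l2 had the most linked peaks, with 8. Of the members with separate groups at the window, Wnt2, Rspo1, Rspo2, Dkk4 and Lef1 had no linked peak and Lrp5 had no promoter peak.

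One linked peak passed the adjusted threshold, against 0.618% of all peaks. It was lower after knockdown and lay in an intron of Dkk3. At an unadjusted p under 0.05, 3 linked peaks were higher and 3 lower, against 3.59% and 5.31% of all peaks. Separate groups were seen in 6 higher and 4 lower linked peaks, against 6.55% and 6.76%. Scaling by library size alone moved the median of all peaks by 0.14 on the log2 scale and gave 11 higher and 1 lower at that unadjusted p, against 11.4% and 1.93% of all peaks under the same scaling. Taken relative to the median of all peaks, 53 of 84 linked peaks were higher under either scaling. In the main fit, 51 of 84 linked peaks had a positive log2 fold change, against 17883 of all 36097 peaks. Leaving out single samples moved this count between 44 (without LacZ-shRNA replicate 1) and 58 (without LacZ-shRNA replicate 3). The counts over all peaks were then 18767 and 17607.

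**Figure D3:**
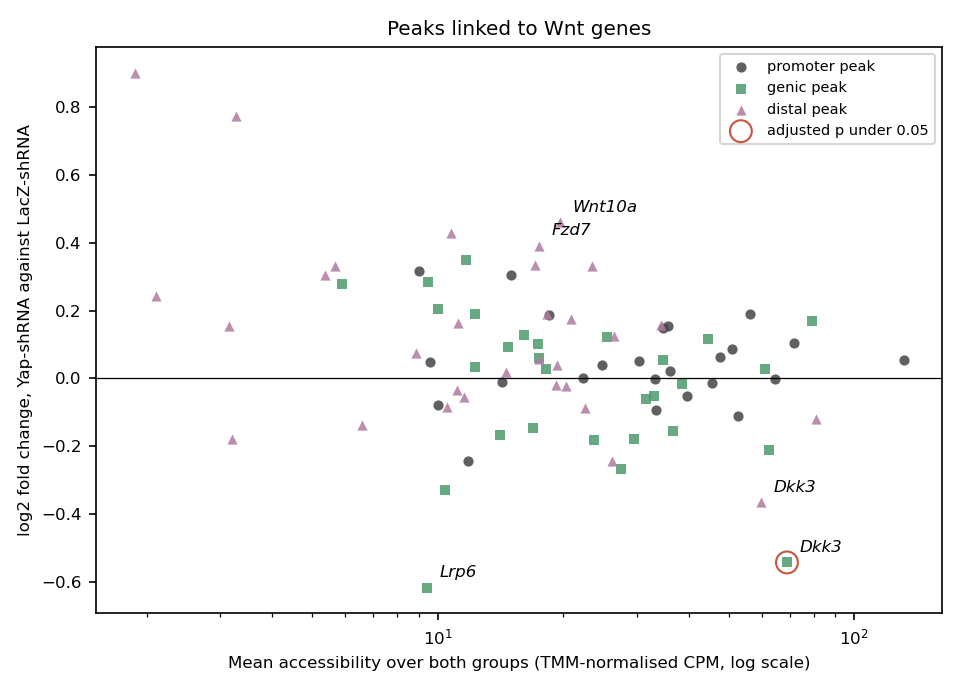
Log2 fold change of the 84 linked peaks against their mean accessibility in TMM-normalised CPM on a log axis, with marker shapes for promoter, genic and distal peaks. The 5 peaks with the smallest p-values are named. The ringed point is the intronic Dkk3 peak at -0.54, the only linked peak past the adjusted threshold.

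Dkk3 (ENSMUSG00000030772, at chr7:112116017-112159057 on the minus strand) encodes a secreted DKK relative that, unlike other DKKs, is not a typical co-receptor antagonist. Its intronic peak at chr7:112127035-112129405 lies 29652 bp from the start and held 73.4, 84.9 and 86.8 CPM in LacZ-shRNA replicates 1, 2 and 3. In the Yap-shRNA replicates it held 60.6, 51.3 and 56.6 CPM. All 3 knockdown values lay below all control values, from a mean of 81.7 ± 7.25 to 56.1 ± 4.67 CPM (SD, n = 3), a log2 fold change of -0.54 (SE 0.12, 95% interval -0.79 to -0.30, adjusted p 0.0194 by edgeR). The call was lost with library size alone (adjusted p 0.178 by edgeR, where the log2 fold change was -0.40, or -0.54 relative to the median of all peaks). It was also lost without LacZ-shRNA replicate 2 (0.0765) and without Yap-shRNA replicate 1 (0.0524), 2 (0.333) or 3 (0.0517), all as edgeR adjusted p-values, while the log2 fold change stayed between -0.62 and -0.48 when samples were left out.

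The second Dkk3 peak lay upstream, outside any annotated gene, at chr7:112184485-112186305 and 25428 bp from the start. It held 56.1, 74.3 and 71.0 CPM in controls and 53.4, 48.8 and 53.9 after knockdown. The groups did not overlap, although LacZ-shRNA replicate 1 came close to the knockdown values, and the log2 fold change was -0.37 (SE 0.13, adjusted p 0.260 by edgeR). The other 2 peaks inside the gene, 9574 and 13816 bp from the start, were weaker and differed by -0.33 (SE 0.23) and 0.092 (SE 0.18), both with overlapping groups. The promoter window, without a promoter peak, differed by 0.034 (SE 0.18), and its difference from the flanking peaks was not tested.

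Both Dkk3 peaks with separate groups hold a TEAD motif, printed above. The Dkk3 peak 9574 bp from the start, at -0.33 with overlapping groups, holds none. Other linked peaks with the motif had positive log2 fold changes in Wnt2b (0.90), Tcf7l2 (0.35 and 0.19), Wnt7a (0.33), Wnt9a (0.11), Tcf7l1 (0.063) and Wnt10a (0.054). Negative ones were seen in Wnt11 (-0.21) and Wnt5b (-0.021). A link of the motif to the differences was not tested. At least 1 match was found in 19.3% of 2362 peaks within 20% of the width of the intronic Dkk3 peak. The share was 14.5% of 4601 peaks within 20% of the width of the upstream Dkk3 peak. Each share includes the peak itself. Summed over each marker list, endothelial windows held 39.1 to 42.3 CPM per kb in controls and 35.9 to 37.2 after knockdown, groups that did not overlap. Fibroblast windows held 30.5 to 33.2 against 31.8 to 36.5, satellite cell windows 19.7 to 22.6 against 19.2 to 20.7, Schwann cell windows 15.7 to 20.9 against 17.2 to 19.5, leukocyte windows 35.2 to 43.3 against 41.7 to 43.8, and muscle fibre windows 259 to 345 against 261 to 304. No gene of these lists passed the adjusted threshold. An unadjusted p under 0.05 by edgeR was seen in 2 of 7 endothelial, 2 of 7 fibroblast, 1 of 7 leukocyte and 1 of 4 satellite cell markers. It was seen in 0 of 12 muscle fibre and 0 of 4 Schwann cell markers, against 1.90% higher and 3.01% lower of all windows. The part of other nuclei in the Dkk3, Wnt2 and Lef1 values was not tested.

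**Figure D4:**
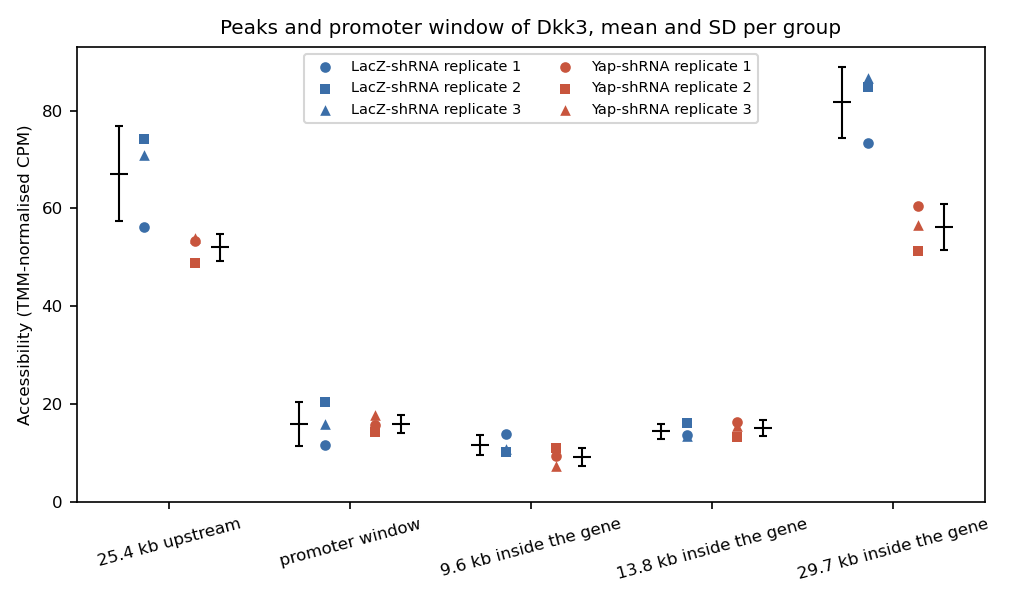
Accessibility of the 4 peaks linked to Dkk3 and of its promoter window in every sample, in TMM-normalised CPM, with group means and SD as black bars and the peaks ordered from upstream to inside the gene. The intronic peak 29652 bp inside the gene and the peak 25428 bp upstream have all Yap-shRNA points below all LacZ-shRNA points.

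The remaining peaks with small p-values did not pass the correction. A distal peak of Wnt10a at chr1:74816632-74817622, outside any gene and 23269 bp from the start, held 18.1, 12.7 and 17.8 CPM in controls and 21.4, 20.3 and 27.5 after knockdown. All knockdown values were higher, with a log2 fold change of 0.46 (SE 0.17, adjusted p 0.314 by edgeR). An intergenic peak of Fzd7 at chr1:59458771-59459666, 22758 bp from the start, held 13.97, 14.9 and 16.2 CPM against 20.3, 18.3 and 21.2. These groups were also separate, with a log2 fold change of 0.39 (SE 0.17, adjusted p 0.443 by edgeR), while the Fzd7 promoter peak, at 129 ± 16.8 CPM, differed by 0.053 (SE 0.13). A peak over an exon of Lrp6 at chr6:134479411-134479930 held 8.21, 16.1 and 10.5 CPM against 8.78, 6.95 and 5.95, with overlapping groups and a log2 fold change of -0.62 (SE 0.25, adjusted p 0.401 by edgeR).

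Further linked peaks belonged to Wnt7a, whose ligand acts with Fzd7 on satellite cells. The peak at chr6:91440467-91441828, 29104 bp from the Wnt7a start and inside 1810044D09Rik, held 16.2, 24.6 and 21.7 CPM in controls and 26.1, 23.1 and 28.9 after knockdown, with overlapping groups and a log2 fold change of 0.33 (SE 0.16, adjusted p 0.540 by edgeR). A weaker one 17919 bp from the start held 2.74, 2.55 and 2.06 CPM against 3.02, 4.03 and 5.29. Its groups were separate at a low level, with a log2 fold change of 0.77 (SE 0.40). The other linked peaks with all knockdown values higher were a distal peak of Fzd9 (0.33, SE 0.17), an intronic peak of Wnt4 (0.17, SE 0.12) and the promoter peak of Ctnnb1 (0.15, SE 0.13), and those with all values lower were an exonic peak of Wnt11 (-0.21, SE 0.12) and a distal peak of Lrp5 (-0.25, SE 0.15), all as log2 fold changes that did not pass the test.

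The intronic Tcf7l2 peak at chr19:55770339-55771178 held 10 TEAD matches, of which 5 are printed above, with a most common spacing of 48 bases in a tandem repeat. Only 2 of 10534 peaks within 20% of its width, itself included, held at least 10. It held 7.94, 13.6 and 9.87 CPM in controls and 10.4, 12.5 and 16.0 after knockdown. The groups overlapped, and the log2 fold change was 0.35 (SE 0.22, adjusted p 0.710 by edgeR). Reads from the copies of a repeat can map to more than a single place, so this count is uncertain. Over all linked peaks, 11 of 84 held a TEAD match (13.1%, against 8.93% of all peaks) and 18 held a TCF/LEF match (21.4%, against 18.3%).

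The other genes of the pathway were examined through a list of 55, of which 54 had a window. None passed the adjusted threshold, again against 0.0223% of all windows. At an unadjusted p under 0.05, 0 were higher and 1 was lower, against 1.90% and 3.01% of all windows. That gene was Musk, the receptor kinase of the neuromuscular junction, which held 21.8 ± 2.85 CPM in controls and 16.4 ± 1.55 CPM after knockdown (SD, n = 3) and did not pass the test (log2 fold change -0.44, SE 0.16, adjusted p 0.946 by edgeR). Separate groups were seen in 3 higher genes (Porcn, which adds the lipid to Wnt ligands, Tnks2, which marks axins for degradation, and Apc2, a relative of the scaffold Apc) and in 1 lower gene (Musk), against 5.31% and 4.79% of all windows. The list had 26 positive and 28 negative log2 fold changes with a median of -0.010. The 7 planar polarity genes were all positive, between 0.011 and 0.11, and the 6 feedback targets all negative, between -0.21 and -0.0100, and no gene of either group passed an unadjusted p under 0.05. Without LacZ-shRNA replicate 1, 3 of 7 planar polarity genes were positive, and with library size alone 4 of 6 feedback targets were negative.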

How the data were processed

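ATAC-seq reads from PCM1-positive myonuclei of 3 LacZ-shRNA and 3 Yap-shRNA samples had been aligned to GRCm38 with BWA 0.7.17, stripped of duplicates with SAMtools 1.8, called into peaks with MACS 1.4.2-1 and counted with featureCounts 1.5.0, per the labels and the study's methods. The deposited values are raw read counts, not normalised, per peak found in several samples and per start window. Rows with a mean count under 10 are not in either table, so members closed in both groups may have no window. Any minimum mapping quality for these tables and the treatment of the transposase offset are not given in the sources used here.

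Window identifiers matched GENCODE vM21 for all 49366 rows. Windows that overlap another gene's window (12 of 49 members: Fzd5, Axin2, Tcf7l1, Wnt7b, Ctnnb1, Rspo1, Wnt5a, Wnt7a, Rspo3, Lef1, Fzd6 and Fzd10) have uncertain counts: where a window contained a whole peak, it reached 0.95 of the peak's reads in 99.98% of cases without such overlap and in 49.2% with it. Counts were compared with the quasi-likelihood test of edgeR 4.0.16 in R 4.3.3 (TMM factors, no covariate, Benjamini-Hochberg over each whole table at 0.05), after the test was checked on simulated data. Positive log2 fold changes are higher in Yap-shRNA. P-values measure the spread between pooled samples.

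The results were recomputed with DESeq2 1.42.0, with voom of limma 3.58.1, with edgeR's likelihood-ratio test, and with library size alone, RLE factors, a GC offset (span 0.3), a mean count of at least 50, a replicate block, an adjusted p under 0.01, wider links, and leaving out each sample. Named were members with an unadjusted p under 0.05, the smallest-p and most open member of each role, Wnt7a, Fzd7, Axin2, Lef1, Ctnnb1 and Tcf7l2, and the 5 linked peaks with the smallest p. Other members and peaks, such as the repeat in Tcf7l2, were named after their values were seen. The members and lists were chosen with earlier results of these data known.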

Additional observations from a re-analysis of the deposited data

How the results depend on the processing

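No Wnt window with an adjusted p passed the threshold under any alternative (DESeq2 gave none for 24 of 49 members, Wnt2 among them), and the range of adjusted p-values for Wnt2 was 0.448 to 0.9999. The number of linked peaks called went from 1 to 0 with library size alone, to 0 with an adjusted p under 0.01, and to between 0 and 1 when single samples were left out (0 without LacZ-shRNA replicate 2 and without each Yap-shRNA replicate), and the adjusted p of the intronic Dkk3 peak ran from 0.0041 to 0.333. The cause was not tested. Over all windows, 11 were called, against 20 with DESeq2, 33 with edgeR's likelihood-ratio test, 22 with the GC offset, 23 with voom, 4 to 157 when single samples were left out (157 without LacZ-shRNA replicate 1, 5 and 4 without Yap-shRNA replicate 1 and 2), and 3 without windows holding 15 or more G or C bases in a row, an alternative chosen after seeing the data. Over all peaks, 223 were called (206 lower and 17 higher), against 116 with DESeq2, 378 with the likelihood-ratio test, 136 with a mean count of at least 50, 94 to 447 when single samples were left out (132 and 447 without LacZ-shRNA replicate 2 and 3, 94 without Yap-shRNA replicate 1 or 2), and 105 without G or C runs. With library size alone, 229 peaks were called, 105 lower and 124 higher. Accessibility per window instead of per kb placed 26 of 49 members above the protein-coding median, against 40.

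Signs reversed for windows with log2 fold changes near 0. Rspo4 was 0.033 with library size alone. Wnt9a was 0.020 with voom, 0.064 with library size alone, 0.042 with the GC offset and 0.013 with the replicate block. When single samples were left out, the ranges were -0.038 to 0.10 for Axin2, -0.0086 to 0.13 for Ctnnb1, -0.14 to 0.19 for Dkk3, -0.28 to 0.062 for Fzd7, -0.17 to 0.074 for Rspo4, -0.15 to 0.24 for Tcf7, -0.084 to 0.15 for Tcf7l2 and -0.16 to 0.11 for Wnt9a. Without a change of sign, they were 0.016 to 0.26 for Axin1, 0.0021 to 0.18 for Wnt7a, -0.28 to -0.062 for Fzd1, 0.097 to 0.37 for Lrp5, -0.26 to -0.11 for Sfrp1, 0.16 to 0.37 for Dkk4, -0.39 to -0.16 for Rspo1, -0.43 to -0.24 for Lef1, and -0.79 to -0.39 for the exonic Lrp6 peak.

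Samples of both groups share replicate numbers, but the deviations of same-numbered samples correlated by 0.19, -0.12 and 0.092 in windows and by 0.015, -0.093 and -0.14 in peaks, so the values give no ground to pair them, and whether a number marks the same animals is not known. With the replicate block, 0 Wnt windows and 1 linked peak were called, as without it, with 13 of all windows and 207 of all peaks. The widest SEs belonged to the members with the fewest window reads, at 0.32 for Fzd6 and 0.40 for Fzd10. Both windows overlap that of another gene, and the promoter peak of Fzd6 had an SE of 0.24.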
